A study of Rattus norvegicus with 10 samples.

Results

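Replicate set 2 was compared with replicate set 1 in cultured rat Sertoli cells. The members were all 10 arrays of the series, 5 in each set, chosen by the replicate number in their labels. The 2 h array that carries no number was counted as set 1 because its partner is labelled replicate 2. All arrays held total RNA of Sertoli cells taken from 20-day-old rats and kept in culture. Each set had 1 array of untreated cells (0 h) and 1 array each after 2, 4, 8 and 24 h of follicle-stimulating hormone (FSH), so the arrays formed 5 pairs matched by time. The labels give no strain, dose, culture method or origin of the replicates. Whatever separated the sets, in the cultures, the RNA or the handling of the arrays, therefore cannot be told apart, and p-values rest on the spread among these arrays alone, which may be technical. Each array carried 59 probe sets for manufacturer's controls and 8740 others, which were compared between the sets.

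Sertoli cells are the somatic cells of the seminiferous tubule that nurse germ cells, and cultures made from young testes can carry germ cells, peritubular myoid cells and other cells along. Germ cells go through meiosis as spermatocytes and become spermatids, and at each stage they make transcripts that somatic cells largely lack. The interferon pathway works through secreted interferons, receptors, transcription factors such as STAT2 and the IRF family, and a large set of induced antiviral genes that carry a short element in their promoters.

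Arrays were scaled to a shared 75th percentile of 107, values below a floor of 13.4 were raised to it, and 4439 probe sets with a mean of at least 31.9 over all arrays were tested on the log2 scale. Intensities are scaled values before the floor. A probe set dim in 1 set could pass the filter through the other set. Examples described below are Ddx4, Ppp3r2 and one Dcn probe set, with set 1 means of 22.4, 25.2 and 28.7. Differences are set 2 minus set 1 in log2 units with their standard error (SE), from limma with time as a block and n = 5 arrays per set. Probe sets with a Benjamini-Hochberg adjusted p under 0.05 over all 4439 were called. At that threshold 290 probe sets (6.53%) were higher and 384 (8.65%) lower in set 2. The calls carried 209 and 261 different gene symbols. All 5 arrays of set 2 lay above all 5 of set 1 for 243 probe sets (5.47%) and below them for 226 (5.09%). Higher calls made up 43.0% of all calls here and 61.4% (405 higher, 255 lower) on the values as deposited, where the median difference moved from -0.05 to 0.08. Without the intensity filter 84 were higher and 83 lower of 8740, or 0.961% and 0.95%. The cause of that drop was not tested. The set took 31.4% of the summed variation of the tested probe sets on 1 degree of freedom, time 43.0% on 4 and the remainder 25.6% on 4.

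The untreated array of set 1 stood apart from the other set 1 arrays, as described below for Ldhc and the spiked controls. Set differences correlated across probe sets at r = 0.11 to 0.417 between the 0 h pair and the later pairs, and at 0.475 to 0.698 among the later pairs, as a description over 4439 probe sets that share arrays. Without the 0 h pair, 474 probe sets were higher and 567 lower in set 2. These included 280 of the 290 and 369 of the 384. Without the 2 h pair the numbers were 197 and 255, without the 4 h pair 162 and 163, without the 8 h pair 144 and 159, and without the 24 h pair 171 and 190.

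Spermatocyte and spermatid genes were higher in set 2. Of 31 probe sets (26 genes) of this list on the array, 15 passed the intensity filter, and 8 of those, for 8 genes, were higher and none lower (background 6.53% and 8.65%; limma). At an unadjusted p under 0.05, 11 were higher and 0 lower. Their median difference was 1.36, against -0.05 over all tested probe sets. Because dim genes pass the filter more easily where 1 set is bright, the whole list is also given. Without the filter 5 of the 31 were higher, beside a background of 0.961%, and their median was 0.43. The brightest probe set of 20 of the 26 genes lay higher in set 2, and that of Oaz3 lower (-0.42). Akap4, Mak, Odf1, Camk4 and Tnp2 were at the floor on all arrays and had no difference. The 8 include Ldhc, Hspa2, Crisp2 and Odf2, which were chosen as markers with results of these arrays known, so that their calls add no support.

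Ldhc, a lactate dehydrogenase made by spermatocytes and spermatids, had intensities of 570, 138, 108, 120 and 58.5 at 0, 2, 4, 8 and 24 h in set 1. In set 2 it had 1007, 1649, 1251, 1532 and 1317. The sets did not overlap, the highest set 1 array was the untreated one, and the difference was 3.22 ± 0.43 (adjusted p = 0.00189). Hspa2, a heat shock protein of meiotic cells, had 162, 91.8, 108, 104 and 48.5 in set 1 and 533, 578, 448, 538 and 521 in set 2. Its difference was 2.44 ± 0.24 (adjusted p = 0.000467), and again every set 2 array was above every set 1 array. Crisp2, a cysteine-rich secretory protein of the acrosome, had 60.4, 42.3, 49.3, 55.1 and 35.2 in set 1 against 287, 201, 132, 226 and 233 in set 2. Odf2, a component of the outer dense fibres of the sperm tail, had 202, 133, 119, 146 and 135 against 385, 383, 410, 392 and 376. Their differences were 2.14 ± 0.21 and 1.43 ± 0.18, with no overlap for either gene. The set 2 values of Odf2 lay within a narrow band across the time course.

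**Figure D1:**
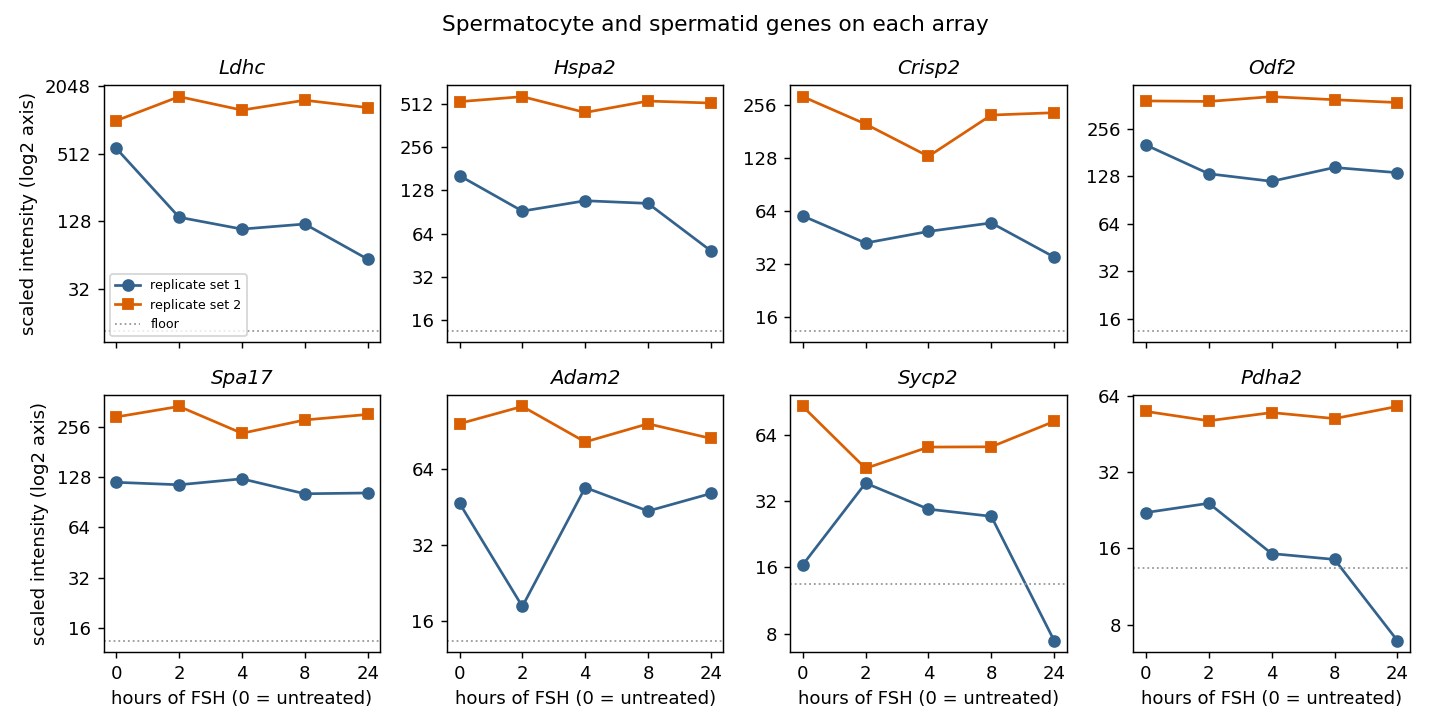
Scaled intensity (log2 axis) of the 8 called spermatocyte and spermatid genes against hours of FSH, with 1 point per array, lines joining the arrays of a set, and the floor of 13.4 dotted. For all 8 genes each set 2 array lies above all set 1 arrays, and the untreated set 1 array is the highest of its set for Ldhc, Hspa2, Crisp2 and Odf2 but not for the other 4.

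The other 4 called genes of the list were Spa17, a sperm surface and tail protein, Adam2, a subunit of the sperm protein fertilin, Sycp2 of the synaptonemal complex, and Pdha2, the pyruvate dehydrogenase subunit of spermatogenic cells. Their differences ran from 1.22 (Adam2) to 1.65 (Pdha2). Pdha2 was at the floor on 1 set 1 array, as was Sycp2. Sycp3, which pairs with Sycp2 along meiotic chromosomes, missed the threshold at 1.68 ± 0.53 (adjusted p = 0.0640). It had 22.9, 192, 169, 107 and 21.8 in set 1 and 295, 161, 226, 234 and 232 in set 2, and the 2 h pair ran the other way. Some genes of late spermatids were dim in both sets. Odf2 was brighter, at 119 to 202 in set 1 and 376 to 410 in set 2. Fabp9 was at 28.4 to 93.4 in set 1 and 420 to 548 in set 2. Which cells or stages gave the signals of Odf2 and Fabp9 was not tested. Prm2, a protamine that packs sperm DNA, had 17.0 to 41.0 against 34.3 to 59.5, and Acr, the acrosomal protease acrosin, 18.2 to 66.9 against 29.5 to 60.9, and neither was called. Tnp2, Odf1 and Akap4, of condensing spermatids and the sperm tail, were at the floor on all 10 arrays.

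The set difference at 0 h was compared with that at the FSH times by an interaction term. It differed for 46 probe sets (1.04%; 1055 at an unadjusted p under 0.05), with 38 of them lower at 0 h. Only 1 pair was measured at 0 h, and it holds the set 1 array that stood apart, so the term cannot be told apart from that array. For Ldhc the difference was 0.82 at 0 h and 3.53 to 4.49 later, and the interaction was -2.99 (adjusted p = 0.0164). Sord, sorbitol dehydrogenase, had -2.62 and Cmtm2a, a MARVEL-domain protein, -2.57. Both had their highest set 1 value on the untreated array, 192 and 93.4. This count moved with the processing, to 13 on the values as deposited, 17 after quantile normalization and 482 without the filter. It was 18, 18 and 24 without the 2, 4 or 8 h pair and 352 without the 24 h pair.

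Spermatogonial genes did not share one direction. Ddx4, the germ line RNA helicase also called VASA, was at 11.9 to 31.7 in set 1 and 43.2 to 159 in set 2 (1.99 ± 0.43, adjusted p = 0.0137), with 2 set 1 arrays at the floor. Uchl1, a deubiquitinase abundant in spermatogonia and also found in somatic cells, was lower in set 2 on 1 of its 3 probe sets (-0.84 ± 0.19), with 1724 to 2437 against 860 to 1303. Its other probe sets had -0.75 and -0.67 and were not called. Ret, a receptor of spermatogonial stem cells, was at -0.09 and not called, and Kit and Gfra1 did not pass the filter.

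Other genes with sperm or testis roles stood among the 15 largest higher differences, outside the germ cell lists. Fabp9, a fatty acid binding protein of spermatids, had 73.1, 93.4, 58.9, 58.2 and 28.4 in set 1 and 464, 488, 420, 548 and 448 in set 2, a difference of 3.02 ± 0.24. Ppp3r2, the testis form of the calcineurin regulatory subunit, had 15.5 to 44.4 against 111 to 147 (2.42 ± 0.26). Dnaaf8, an assembly factor of axonemal dynein, had 5.52 to 36.5 against 65.8 to 113, with 3 set 1 arrays at the floor. Fbp1, the fructose bisphosphatase of gluconeogenesis, was at 4.65 to 17.4 in set 1, with 4 arrays at the floor, and at 120 to 187 in set 2. Its fitted 3.48 ± 0.24 therefore depends on the floor. Igfbp2, which binds insulin-like growth factors, was at 6.13 to 14.4 and 69.2 to 114, also with 4 set 1 arrays at the floor. Both genes kept every set 2 array above every set 1 array. Sord, Cmtm2a, Wdr31, Resp18, Hmgb2, Hbb, a probe set named Crp and one named Rpl19l4 completed the 15. The last had 24.8 to 130 against 1270 to 2183 (4.74 ± 0.36). Its probe set matches several sequences, as do 7 of the 11 unnamed probe sets among the 20 largest higher calls, so that name is uncertain, as is Crp for the same reason.

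Interferon-stimulated genes were lower in set 2. All 17 probe sets (13 genes) of the interferon and antigen presentation list passed the filter, 10 of them (9 genes) were lower and none higher (background 8.65% and 6.53%; limma). At an unadjusted p under 0.05, 13 were lower and 0 higher. Their median difference was -1.08. The brightest probe set of all 13 genes lay lower in set 2. Without the filter 2 of the 17 were lower, beside a background of 0.95%. The summed level of the list, with the brightest probe set of each gene, was 6448, 4599, 5092, 1837 and 4937 at 0, 2, 4, 8 and 24 h in set 1, and 1436 to 2208 in set 2. The 8 h array of set 1 thus lay inside the range of set 2. Without the 8 h pair 9 of the 17 were lower, beside 159 of 4439 over all tested probe sets. Without the 4 h pair the number was 5, beside 163 of 4439.

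The promoter stretches of 4 genes of the list and of Rsad2, an interferon-induced gene outside it, are shown because all 5 genes were lower in set 2 and each holds the letters of an interferon-stimulated response element, here GAAA repeated with 2 bases of any kind between the copies, on one of the strands. They run from 200 bases before the RefSeq start (build GRCr8) to the base before it, 5′ to 3′ along the gene, with the motif in capitals. In Oas1a 2 matches overlap.
Rsad2 (chr6:48788121-48788320, minus strand): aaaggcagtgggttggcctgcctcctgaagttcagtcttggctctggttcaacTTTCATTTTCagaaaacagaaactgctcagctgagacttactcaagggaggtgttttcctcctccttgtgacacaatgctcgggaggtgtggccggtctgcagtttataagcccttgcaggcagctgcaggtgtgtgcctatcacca
Irf7 (chr1:205800024-205800223, minus strand): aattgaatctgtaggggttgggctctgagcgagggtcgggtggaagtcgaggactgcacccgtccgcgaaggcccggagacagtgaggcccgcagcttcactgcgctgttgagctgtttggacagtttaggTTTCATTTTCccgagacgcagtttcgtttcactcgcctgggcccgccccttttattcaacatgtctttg
Oas1a (chr12:41330266-41330465, plus strand): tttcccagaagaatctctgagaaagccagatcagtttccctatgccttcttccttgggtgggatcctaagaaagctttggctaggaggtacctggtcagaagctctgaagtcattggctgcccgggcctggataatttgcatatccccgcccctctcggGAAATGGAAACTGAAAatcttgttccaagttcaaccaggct
Irgm2 (chr10:42889770-42889969, plus strand): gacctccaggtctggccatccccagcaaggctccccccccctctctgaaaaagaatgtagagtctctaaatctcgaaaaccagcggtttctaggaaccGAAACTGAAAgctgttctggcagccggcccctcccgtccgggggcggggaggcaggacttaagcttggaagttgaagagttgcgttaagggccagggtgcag
B2m (chr3:129549130-129549329, plus strand): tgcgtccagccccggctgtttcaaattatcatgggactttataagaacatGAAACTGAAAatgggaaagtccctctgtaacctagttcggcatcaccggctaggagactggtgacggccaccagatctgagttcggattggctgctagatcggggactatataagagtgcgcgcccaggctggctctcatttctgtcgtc
The first match began 147 bases before the start in Rsad2, 69 in Irf7, 41 in Oas1a, 102 in Irgm2 and 150 in B2m. Of the 13 listed genes 12 had a promoter of 300 bases (250 before and 50 after the start) in the RefSeq table, and 8 of those held the motif on either strand (B2m, Gbp2, Irf7, Irgm2, Oas1a, Psmb8, Tap1 and Tap2). Irf1, Mx1, Psmb9 and Stat2 did not. Among all 33469 promoters of this length 3.92% held it, among the tested genes 3.43%, and in the spermatocyte and spermatid list 0 of 21. In all, 7 motifs were searched on both strands, and this one was kept after its matches were seen. The others, with their share of all promoters, were the same motif with 2 further bases of any kind after it (3.90%), TTCNNNGAA (8.87%), TGACGTCA (1.83%), TGACG (21.2%), TAACTG (10%) and TAACNGTT (1.46%). They were found in 8, 4, 0, 3, 1 and 0 of the 12 interferon genes and in 0, 3, 1, 8, 4 and 1 of the 21 germ cell genes.

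Mx2, an antiviral GTPase, had intensities of 433, 355, 351, 67.9 and 314 in set 1 and 18.5, 33.3, 11.7, 11.7 and 59.3 in set 2, with 2 set 2 arrays at the floor. Its difference was -3.48 ± 0.37 (adjusted p = 0.000609), and the sets did not overlap although the 8 h array of set 1 was close to set 2. Irf7, a transcription factor that amplifies interferon expression, had 1034, 379, 636, 113 and 532 against 25.5, 129, 47.3, 88.2 and 70.4 on its brighter probe set. Here the sets overlapped through the set 1 array at 8 h, and the difference was -2.78 ± 0.57 (adjusted p = 0.0117). A second Irf7 probe set had -2.14 ± 0.38. Stat2, which carries the interferon signal to the nucleus, had 673, 342, 289, 78.8 and 536 against 78.5, 55.9, 80.2, 38.3 and 62.7. Oas1a, an oligoadenylate synthetase that senses viral RNA, had 1514, 873, 970, 219 and 889 against 185, 204, 192, 160 and 170. Their differences were -2.34 ± 0.30 and -2.06 ± 0.32, and both had their lowest set 1 value at 8 h.

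B2m, the light chain of MHC class I, had 746, 1014, 1291, 573 and 969 in set 1 and 404, 571, 357, 447 and 345 in set 2 (-1.08 ± 0.23). Irgm2, an immunity-related GTPase, Mx1, Irf1 and Psmb8, a subunit of the immunoproteasome, were the other called genes, from -1.45 to -0.73. Psmb9, Tap1, Tap2 and Gbp2 were not called on any probe set. Genes that interferon induces were also found outside the list. Rsad2, the antiviral enzyme viperin, had 337, 266, 267, 33.01 and 107 in set 1 and 39.6, 11.4, 17.1, 21.4 and 2.87 in set 2. With 2 set 2 arrays at the floor, its fitted -2.995 ± 0.456 depends on the floor. Cxcl10, a chemokine, had 255, 148, 164, 33.8 and 52.9 against 24.5, 38.5, 23.8, 22.9 and 14.5 (-2.11 ± 0.37). Lgals9, the lectin galectin-9, had 103 to 594 against 25.8 to 46.9 (-2.70 ± 0.37), and Lgals3bp, a galectin-binding protein, 555 to 1509 against 243 to 375 (-1.86 ± 0.25).

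**Figure D2:**
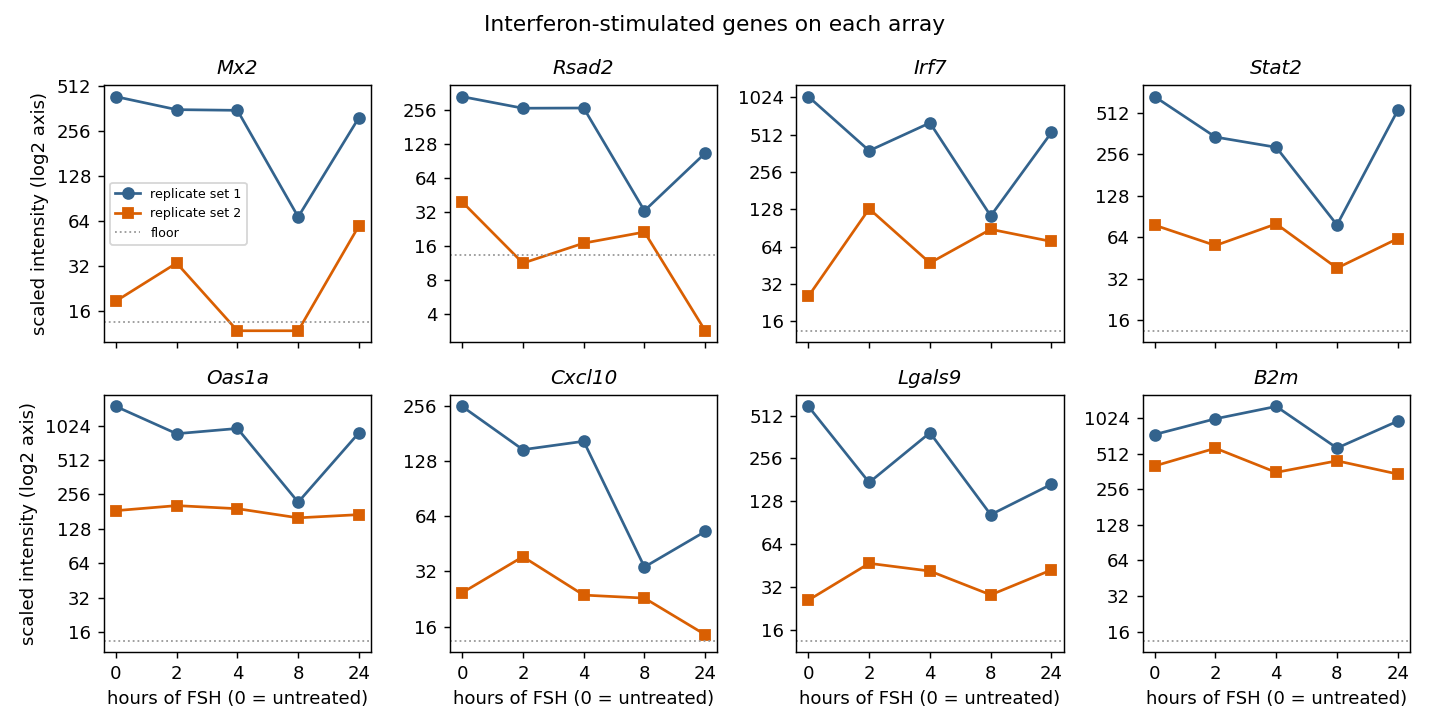
Scaled intensity (log2 axis) of 8 interferon-stimulated genes against hours of FSH, with 1 point per array, lines joining the arrays of a set, and the floor of 13.4 dotted. Set 1 lies above set 2 at every time, and the 8 h array of set 1 is the lowest of its set for all 8 genes, with Mx2 at 67.9 there.

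The other genes among the 15 largest lower differences had mixed roles. They were Gpd1, glycerol-3-phosphate dehydrogenase (-1.96 ± 0.32), Aplp2, a relative of the amyloid precursor protein (-1.95), the retinoic acid receptor Rara (-1.92, with 3 set 2 arrays at the floor), Nrbp1 (-1.91), Ptms (-1.85), Sdc4 (-1.72) and Abcc1 (-1.67). Sdc4, the heparan sulphate proteoglycan syndecan-4, had 3040, 4870, 4027, 2777 and 3128 in set 1 and 1233, 1057, 1329, 770 and 999 in set 2, with no overlap.

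Genes of the Sertoli cell itself were lower in set 2 where they were called. Of 29 tested probe sets (20 genes) 9 were lower, for 6 genes, and none higher (background 8.65% and 6.53%; limma), and the median was -0.51. At an unadjusted p under 0.05, 17 were lower and 1 higher. Without the filter 2 of 41 were lower, beside 0.95% over all probe sets. Without the 8 h pair 4 of the 29 were lower, beside 159 of 4439. The summed level of the list was 19167 to 26277 in set 1 and 14573 to 19083 in set 2, which narrowly did not overlap. That sum weighs bright genes most, such as Clu below, which was not called. Gata4, a transcription factor of Sertoli cells, had 331, 173, 450, 350 and 165 against 61.7, 106, 126, 105 and 109, a difference of -1.46 ± 0.27 (adjusted p = 0.00834). A second probe set had -1.21. Inha, the inhibin alpha subunit, followed a like time course in both sets, with 363, 640, 1220, 1793 and 746 in set 1 and 167, 327, 763, 767 and 405 in set 2 (-0.97 ± 0.16). Fshr, the FSH receptor, had 195, 122, 125, 81.0 and 109 against 88.2, 90.5, 68.8, 56.6 and 62.5 (-0.75 ± 0.19), and the sets overlapped. Cdh2, Wt1 and Gstm2 were the other genes called. Gstm2 has close paralogs and its assignment is uncertain. Clu, the secreted chaperone clusterin, had 9243 to 13782 against 6779 to 9796 and was not called (-0.51, adjusted p = 0.0904). Shbg, Ctsl, Vim and Amh were not called either. In RNA of mixed cultures, fewer cells of a type and less RNA per cell cannot be told apart, here and for each cell type.

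Mitotic and DNA replication genes were more often called higher than lower. Of 37 tested probe sets (24 genes) 11 were higher, for 8 genes, and 1 was lower (background 6.53% and 8.65%; limma), with a median of 0.51. Without the filter 6 of 49 were higher, beside 0.961% over all probe sets. With only the brightest probe set of each gene the number was 7, beside 165 of 2733 in all. Without the 8 h pair it was 6, beside 144 of 4439. Cdc20, which activates the anaphase-promoting complex, had 144, 133, 143, 155 and 106 in set 1 and 285, 362, 376, 326 and 329 in set 2 (1.31 ± 0.17, adjusted p = 0.00189). Stmn1, a microtubule-destabilizing protein, had 182, 307, 262, 292 and 167 against 587, 621, 564, 597 and 535 (1.31 ± 0.18). The sets did not overlap for either gene. Ccnb1, cyclin B1, had 14.3 to 32.8 against 55.7 to 86.7 on one probe set and was not called on another (0.63). Its kinase Cdk1 had 14.0 to 33.1 against 41.2 to 61.3. Mcm6 of the replicative helicase was higher on all 3 of its tested probe sets (0.83 to 1.15), and the primase subunit Prim2 on both of its own. Hmgb2, a chromatin protein abundant in dividing and in meiotic cells, had 7.90 to 31.2 against 78.4 to 111 (2.42 ± 0.30), with 2 set 1 arrays at the floor. The called Ccnb1 probe set, Cdk1 and Hmgb2 had set 1 means of 23.9, 21.9 and 16.6. These lie under the filter's 31.9, so the 3 genes were tested only because set 2 was bright. Without the filter Hmgb2 stayed called (limma, adjusted p = 0.0391), while Ccnb1 and Cdk1 did not (0.0663 and 0.0580). Ccnd3, cyclin D3, was lower on 1 of 3 probe sets (-1.56 ± 0.28), with 99.0 to 201 against 23.8 to 78.4. Pcna, Top2a, Plk1 and Foxm1 were not called. Meiotic cells also express several of these genes, and their part in these counts was not tested.

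**Figure D3:**
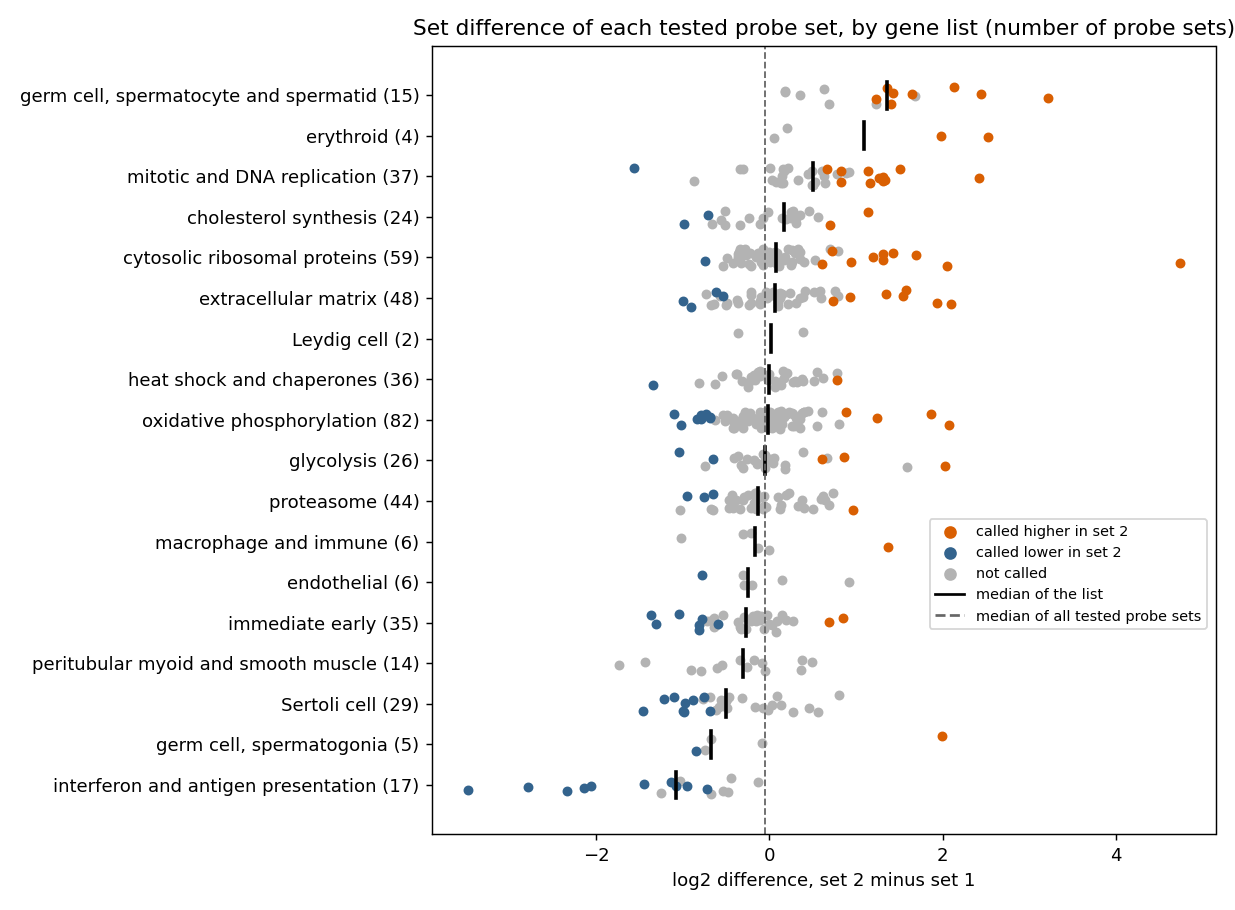
Log2 difference (set 2 minus set 1) of each tested probe set, by gene list, with the number of probe sets in brackets, called probe sets in colour, a black bar at each list's median and a dashed line at the median of all tested probe sets, -0.05. The spermatocyte and spermatid list lies furthest right with a median of 1.36 and the interferon list furthest left with -1.08. The erythroid list (4 probe sets) has 1.09 and the spermatogonia list (5 probe sets) -0.67. The mitotic list has 0.51 and the Sertoli cell list -0.51, while most other lists lie nearer the dashed line.

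Matrix genes were called in both directions, the lower calls at about the share found over all tested probe sets. Of 48 tested probe sets of the extracellular matrix 7 (5 genes) were higher and 4 (4 genes) lower (background 6.53% and 8.65%; limma), with a median of 0.07. Without the filter 2 were higher and 1 lower of 76, beside 0.961% and 0.95% over all probe sets. Without the time block 4 were higher, beside 270 of 4439 in all. Without the 2 h pair or the 4 h pair 4 were higher as well, beside 197 and 162 of 4439. The higher genes were the fibrillar collagens Col1a1, Col1a2 and Col3a1, the proteoglycan decorin (Dcn) and fibronectin (Fn1). Dcn had 16.3, 43.8, 34.9, 13.6 and 34.9 in set 1 and 79.0, 229, 44.3, 120 and 177 in set 2 on one probe set (2.10 ± 0.36), and 1.54 ± 0.19 on another, while a further tested one had 0.51 and was not called. Col1a1 had 109, 62.9, 74.6, 96.5 and 313 against 350, 475, 389, 373 and 531 (1.94 ± 0.28), while its other 3 probe sets had -0.10, 0.12 and 0.10 and were not called. Both Col1a1 and Col1a2 were highest in set 1 at 24 h, and Col1a2, at 347 there, exceeded all set 2 arrays. The lower genes were biglycan (Bgn, -0.90 ± 0.18 on one probe set, with -0.64 on another that was not called), the metalloproteinase inhibitor Timp3 (-0.99), the calcium-binding protein Sparc (-0.54, on 1 of 4 probe sets) and the collagen hydroxylase subunit P4ha1 (-0.62). Bgn had 461, 382, 410, 724 and 596 against 228, 238, 268, 269 and 347.

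Peritubular myoid cells make much of the collagen of the tubule wall, and their markers showed no call among 14 tested probe sets (limma; median -0.30; 7 of 12 genes tested), with 4 lower and 0 higher at an unadjusted p under 0.05. The summed level of that list was 1428 to 1652 on the set 1 arrays up to 8 h, 4212 on the set 1 array at 24 h, and 1508 to 2104 in set 2. Smooth muscle actin, Acta2, had 122, 78.0, 218, 456 and 1361 in set 1 and 282, 520, 421, 353 and 322 in set 2 on its brightest probe set. Tagln, the smooth muscle protein transgelin, reached 405 on the same 24 h array and stayed at 37.1 to 54.6 in set 2. The part of such cells in the matrix differences was not tested. Without the 24 h pair 7 matrix probe sets were higher, beside 171 of 4439 over all. Without the 0 h pair 9 were, beside 474 of 4439.

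**Figure D4:**
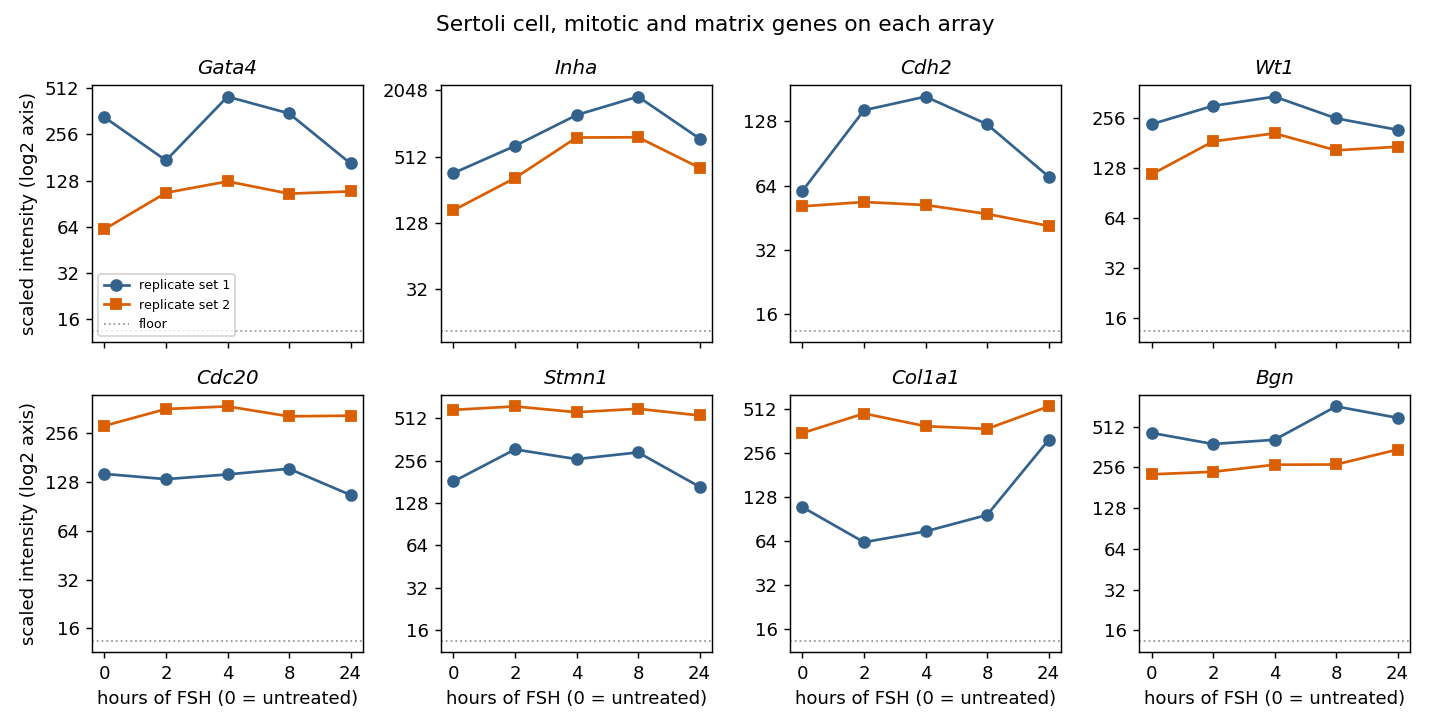
Scaled intensity (log2 axis) of Sertoli cell genes (Gata4, Inha, Cdh2, Wt1), mitotic genes (Cdc20, Stmn1) and matrix genes (Col1a1, Bgn) against hours of FSH, with 1 point per array, lines joining the arrays of a set, and the floor of 13.4 dotted. Set 2 is the lower set at every time for the Sertoli cell genes and Bgn, and the higher set at every time for Cdc20, Stmn1 and Col1a1, whose set 1 value rises to 313 at 24 h.

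Markers of other cell types had 2 to 6 tested probe sets per list, too few to read a share against the 6.53% higher and 8.65% lower over all tested probe sets. No Leydig cell probe set was called of 2 tested (limma, and 0 at an unadjusted p under 0.05; summed level 216 to 399 in set 1 and 271 to 405 in set 2), and the steroidogenic gene Cyp17a1 was at the floor on 4 arrays of each set. Of 6 tested macrophage and immune probe sets 1 was higher, the MHC class II chain RT1-Bb (1.36 ± 0.18, with 44.4 to 64.8 against 115 to 150). The pan-leukocyte gene Ptprc did not pass the filter, and Aif1, Itgam and Csf1r were also too dim to test. Of 6 endothelial probe sets 1 was lower, the vasoconstrictor endothelin Edn1 (-0.78 ± 0.23), and the endothelial markers Pecam1, Vwf and Kdr did not pass the filter. Of 4 erythroid probe sets 2 were higher, the beta globins Hbb and Hbb-b1, which share sequence and may read the same transcripts. Hbb had 213, 74.3, 70.0, 65.9 and 90.2 against 463, 1127, 457, 535 and 325 (2.53 ± 0.35). Alas2, the erythroid enzyme of haem synthesis, and Slc4a1, the red cell anion exchanger, were not called, with differences of 0.20 and 0.06. The summed level of the erythroid list was 282 to 736 against 795 to 1881.

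Housekeeping groups differed in their counts, beside 6.53% higher and 8.65% lower over all tested probe sets (limma). Of 59 ribosomal protein probe sets 10 were higher and 1 lower (12 and 4 at an unadjusted p under 0.05), with a median of 0.08. Among the higher were 3 of Rpl21 (0.72 to 2.04) and Rpl30 (1.70 ± 0.23), and the lower one was Rpl26 (-0.74). The higher ones also include the probe set named Rpl19l4 (4.74 ± 0.36), whose name is uncertain. Many processed copies of these genes exist, so single probe sets are uncertain. Of 82 oxidative phosphorylation probe sets 4 were higher and 9 lower, 4 of the lower ones being Cox8a of cytochrome c oxidase (-1.10 to -0.69). Cox6c was called in both directions on different probe sets. Of 44 proteasome probe sets 1 was higher and 3 lower, of 36 heat shock and chaperone probe sets 1 and 1, of 26 glycolysis probe sets 3 and 2, and of 24 cholesterol synthesis probe sets 2 and 2. Fdps of cholesterol synthesis was higher (1.13 ± 0.28) and Pgam1 of glycolysis lower (-1.05 ± 0.17).

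Immediate early genes, which respond first to FSH, had 7 of 35 probe sets (5 genes) lower in set 2 and 2 higher, beside 8.65% lower and 6.53% higher over all tested probe sets (limma). For Klf4, a zinc finger transcription factor, the 0 h arrays were alike at 53.1 and 54.2. The FSH arrays had 1116, 710, 275 and 152 in set 1 and 330, 149, 101 and 57.9 in set 2 (-1.37 ± 0.29). Nr4a1, an orphan nuclear receptor, had 54.9, 713, 401, 98.4 and 95.3 against 61.7, 251, 169, 40.1 and 38.2 (-1.04 ± 0.25). Both sets peaked at 2 h for both genes. Their interaction of set with FSH was not called. Egr1 and Egr4 were higher in set 2 (0.68 and 0.85), and Fos, Dusp1 and Klf10 lower. The Egr4 probe set is of the shared-sequence kind described for Crp, so that name is uncertain too.

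Agreement between probe sets of a gene was partial. Of 763 genes with several tested probe sets 213 had a call. All probe sets lay in 1 direction for 174 of these, all were called in the same direction for 46, and 4 were called in both.

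RNA quality and hybridisation controls also differed by set. The ratio of 3′ to 5′ probe sets, which grows where transcripts are broken or copied short, was 1.17, 1.06, 1.12, 0.928 and 1.01 for beta-actin in set 1 and 1.76, 1.48, 1.74, 1.52 and 1.73 in set 2. Its log2 difference was 0.64 ± 0.12 (SD, n = 5 pairs), higher in 5 of 5 pairs. The exact two-sided sign-flip permutation test gave p = 0.0625, the smallest it allows with 5 pairs, or 0.109 adjusted over 7 ratios, so no ratio could pass 0.05. The beta-actin ratio of 3′ to middle probe sets differed by 0.74 ± 0.15. GAPDH 3′/5′ ran from 0.735 to 0.904 in set 1 and from 0.914 to 1.06 in set 2, a smaller difference of 0.28 ± 0.13. The hexokinase ratio was 1.60 to 2.68 against 2.58 to 11.2. The deposited intensity of its 5′ probe set was 13.2 to 44.9 in set 1 and 5.3 to 14.4, around or under the floor, in set 2, so the size of the ratio there cannot be read.

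Spiked bacterial transcripts, added in hybridisation and independent of the cells, differed between the sets as well. The ratio of BioC to BioB was 1.05 to 1.14 on the 4 FSH arrays of set 1, 2.88 on its untreated array, and 1.87 to 2.25 in set 2. The ratio of the middle to the 5′ probe set of BioB was 2.25 to 3.01 in set 1 and 1.43 to 2.05 in set 2, lower in 5 of 5 pairs. These ratios differed between the same sets as the germ cell, interferon, mitotic, matrix and Sertoli cell genes. Whether they went together array by array, and their part in those differences, was not tested. A comparison with transcript or protein length was not made, since no length table was used here.

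**Figure D5:**
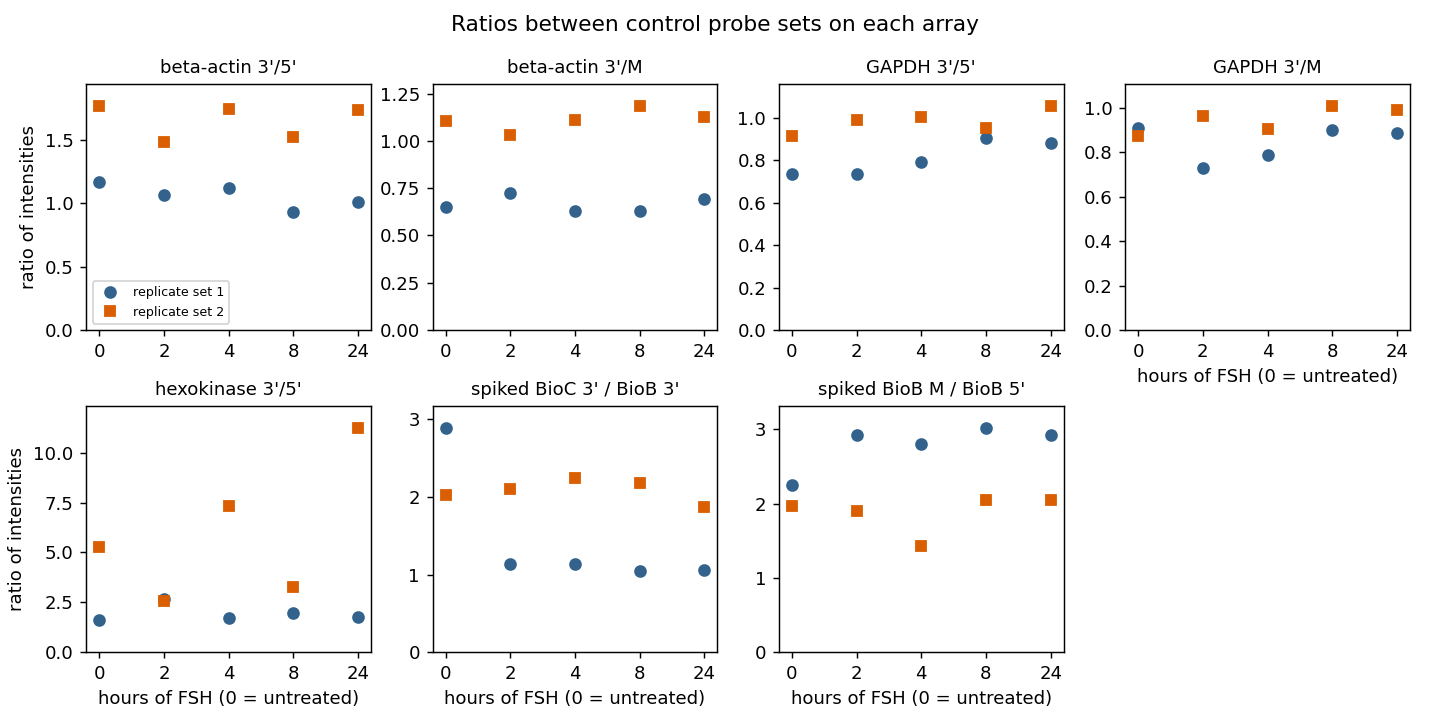
Ratios of intensities between control probe sets on each array, with hours of FSH on the horizontal axis and the sets in colour, each panel starting at 0. Beta-actin 3′/5′ lies at 0.928 to 1.17 in set 1 and 1.48 to 1.76 in set 2, and the untreated set 1 array, at 2.88 for BioC over BioB, stands away from the other 4 arrays of its set.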

How the data were processed

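The 10 arrays, 5 per replicate set, were analysed. Per the file headers, the authors deposited 1 linear intensity for every probe set on each array. How it was scaled or background-corrected is not given in the sources used here, though array means trimmed by 2% at both ends were 125.2 to 125.27. No depth applies to arrays, and their number limits the precision.

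Each array was divided by 0.911 to 1.127 to a shared 75th percentile of 107, the floor was that percentile divided by 8, and log2 was taken. Differences were fitted with limma 3.58.1 in R 4.3.3 (time block, eBayes with intensity trend, 4 residual degrees of freedom), tested on simulated data. List members, counts and medians are descriptions. The members and the lists were chosen with earlier results of these data known. Named genes were the 15 largest called differences in each direction with 1 symbol and 5 pairs of one sign, every called list member, and all tested germ cell genes. In the platform annotation 7006 probe sets had a single symbol (6985 found in RefSeq), 308 had more than 1 and 1426 had no symbol. Scaling, floor, filter, block, weights, trend, probe set choice and each pair were varied.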

Additional observations from a re-analysis of the deposited data

Results flagged for a closer look

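In groups of 5 arrays, 186 were checked for a single array far from the rest, and 23 such values were found. Normal and independent groups would give about 9.3. The intensities were not logged, the groups share arrays, and many genes were picked for a set difference. The 2 numbers therefore cannot be set against each other as a test. On the untreated set 1 array they were Ldhc at 570, Cmtm2a at 93.4, Sord at 192, Hbb at 213, Hbb-b1 at 165, Ppp3r2 at 44.4, Gpd1 at 410, Uchl1 at 2674, Mcm6 at 210, Gstm2 at 4444, BioC over BioB at 2.88 (all above their group) and BioB middle over 5′ at 2.25 (below it). On the set 1 array at 24 h they were Igfbp2 at 14.4, Col1a1 at 313 and Col1a2 at 347. In set 2 they were Hbb at 1127, Hbb-b1 at 515 and Psmb8 at 373 at 2 h, Ret at 84.3 at 0 h, and Prm2 at 59.5, Gstm2 at 1591, Gata4 at 118 and BioB middle over 5′ at 1.43 at 4 h, the last below its group.

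The difference between the sets at 0 h and that at the FSH times were compared by an interaction term (limma, Benjamini-Hochberg adjusted p under 0.05), which 46 probe sets passed. Named genes among them were Ldhc at -2.99, Sord at -2.62 and Cmtm2a at -2.57, each with a smaller set difference at 0 h, where only 1 pair was measured.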

How the results depend on the processing

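Only arrays of 2 sets with 1 array per time were compared, and the time block is the pairing used throughout. No paired analysis by replicate number was possible because the number defines the groups. No called gene named here changed direction under the alternatives run. Of the values of single named genes under them, 1678 stayed on their side of the threshold, 367 lost the call, 6 gained it, and 4 changed sign, all for genes that were not called (Ret, Cst8 and Acr). Counts of the smaller lists also moved by over 1.5 times under several alternatives.

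The 290 probe sets higher in set 2 became 84 without a filter, 170 with a filter at the 75th percentile, 478 with array weights, 165 with the brightest probe set of each gene, 191 with at least 1 log2 unit, and 144 to 474 with 1 pair left out. The 384 lower became 255 as deposited, 83 without a filter, 608 with weights, 214 with the brightest probe set, 154 with at least 1 log2 unit, and 159 to 567 with 1 pair left out. No filter with a pseudocount of 16, chosen after seeing the data, gave 259 and 294. The interaction count of 46 became 13 as deposited, 17 after quantile normalization, 482 without a filter, and 18 to 352 with 1 pair left out, an alternative also chosen after seeing the data.

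Among the lists, whose 5 leading counts were picked for this after seeing them, germ cell calls fell from 8 to 5 without a filter and to 5 with the stricter filter. Mitotic calls fell from 11 to 6, 5 and, with the brightest probe set, 7 (6 to 12 with 1 pair left out). Matrix calls fell from 7 to 2 and 3, and to 4 without the time block (4 to 9). Sertoli cell calls fell from 9 to 2 without a filter and 4 with at least 1 log2 unit (4 to 13). Interferon calls fell from 10 to 2 without a filter and 6 without the time block (5 to 10). Of the 8 called spermatocyte and spermatid genes, Sycp2 kept its call in 10 of 15 alternatives, Adam2 in 13 of 15 and Ldhc in 15 of 16. Hspa2, Crisp2, Odf2, Spa17 and Pdha2 kept theirs in all. Calls over all probe sets fell as well without a filter, from 6.53% to 0.961% higher and from 8.65% to 0.95% lower. With no time block 270 were higher and 268 lower in all. The causes were not tested.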
